A study of Mus musculus with 20 samples.

Results

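The comparison described here is the genotype dependence of the kidney response to an inhibitor of methionine adenosyltransferase 2A (MAT2A), that is, whether SP kidneys answered the inhibitor differently from WT kidneys. All 20 of the 20 libraries in the series entered it, 5 in each of the 4 groups that the sample titles name. Each gene received an interaction value, the log2 ratio of SP MAT2Ai to SP placebo minus the log2 ratio of WT MAT2Ai to WT placebo. A positive interaction therefore means that the SP response lay above the WT response, and a negative one that it lay below. Of 43430 genes in the count tables, 16152 had enough counts to be tested.

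The SP MAT2Ai and SP placebo groups were male C3H/HeJ mice homozygous for Sweet Pee, a missense mutation of Slc5a2 carried in the germline and therefore present in every cell. The WT MAT2Ai and WT placebo groups were wild-type C3H/HeJ males. All 4 groups shared a high-fat diet (60% of calories from fat) begun at 10 weeks of age and given for 8 weeks before treatment, so no group on a normal diet enters the contrast. The inhibitor (MAT2Ai), a styryl-substituted N-methylaniline that carries chlorine and fluorine, was injected intraperitoneally at 10 mg/kg 3 times per week for 8 weeks, and placebo mice received DMSO. Poly(A) RNA of the kidney cortex was sequenced, with 53296824 to 79339949 reads counted to genes per library. Levels are given as CPM, a gene's counts per 1000000 counted reads after TMM scaling, and the labels do not say that each library is a separate animal, so the tests measure the spread between these libraries only.

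MAT2A makes S-adenosylmethionine from methionine and ATP, and this metabolite donates the methyl groups that are placed on histones, RNA, proteins and small molecules. Slc5a2 encodes SGLT2, the sodium-glucose cotransporter that reabsorbs most of the filtered glucose in the early proximal tubule, and its loss leads to glucose in the urine. The proximal tubule takes up and oxidises fatty acids as its main fuel.

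Some libraries stood apart before any contrast was made. WT MAT2Ai replicate 2 lay at 89.7 on the first principal component (20.5% of the variance), where the other 19 libraries lay between -22.9 and 21.8, so values without it are given throughout. Slc5a2 itself, whose mutant allele still makes mRNA, was at 43.5 to 85.9 CPM in SP MAT2Ai libraries and at 241, 282, 70.1, 40.2 and 56.7 CPM in SP placebo libraries. It was at 229 to 415 CPM in WT MAT2Ai libraries and at 371 to 518 CPM in WT placebo libraries. The libraries labelled SP placebo 1 and 2 were thus above every other SP library, within the WT MAT2Ai range and below every WT placebo library. Their label is therefore uncertain, and they form part of the baseline of every SP response below. The 21 markers of the S1 and S2 proximal tubule summed to between 16460 and 22950 CPM in every library.

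No gene passed the test of genotype dependence. In edgeR's quasi-likelihood test with Benjamini-Hochberg adjustment 0 of 16152 genes (percent called 0) had an adjusted p under 0.05, and the smallest adjusted p was 0.842. At an unadjusted p under 0.05 there were 903 genes (5.59%), where 5% of the genes tested is 808, and 309 of them (1.91%) were positive and 594 (3.68%) negative. DESeq2 and edgeR's likelihood ratio test each called 1 gene, Adgrf3, and limma-voom called 0. Without WT MAT2Ai replicate 2, 0 of 16296 genes passed (smallest adjusted p 0.631) and 829 (5.09%) had an unadjusted p under 0.05, 328 (2.01%) positive and 501 (3.07%) negative. In that set of 19 libraries limma-voom called 0 genes, the likelihood ratio test 5 (Adgrf3, Egr1, Fos, Fosb and Slc6a12) and DESeq2 7, which were these 5 with Jarid2 and Tmem47.

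The intervals say how large a difference could have gone unseen. Among the 12696 tested genes with a mean of at least 1 CPM (log2 CPM of at least 0), the 95% interval of the interaction lay within 2-fold of no difference in both directions for 87.9%, and within 1.5-fold for 67.5%. Over all 16152 genes the shares were 71.2% and 53.1%, and the median standard error was 0.183 on the log2 scale, or 0.166 without WT MAT2Ai replicate 2. The median interaction of all genes was -0.01, and 7622 genes (47.2%) were positive, or 8142 (50%) without WT MAT2Ai replicate 2, where the SP response was positive for 49.5% and the WT response for 50.4% of genes.

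The separate responses were also sparse at the adjusted threshold of the main test. In SP kidneys 3 genes rose (0.0186%) and none fell, and in WT kidneys 0 genes passed in either direction (percent called 0). At an unadjusted p under 0.05 the SP response held 956 genes (5.92%) and the WT response 2540 (15.7%), but without WT MAT2Ai replicate 2 the shares were 8.49% (1383 genes) and 8.88% (1447 genes). Split by direction, the SP response held 497 positive (3.08%) and 459 negative genes (2.84%), and the WT response 1675 (10.4%) and 865 (5.36%). Without that replicate the SP response held 718 (4.41%) and 665 (4.08%), and the WT response 885 (5.43%) and 562 (3.45%), so the larger number in WT moved with that library. DESeq2 called 27 genes in the SP response and 215 in the WT response, and limma-voom 17 and 2. The 3 genes that rose in SP were Dscaml1, a cell adhesion protein, Psrc1, a microtubule regulator induced by p53, and Ly6e, an interferon-inducible surface protein. Ly6e was at 421, 242, 175, 173 and 149 CPM in SP MAT2Ai libraries, against 71, 68.3, 79.3, 77.9 and 88 CPM in SP placebo libraries. The inhibitor groups of both genotypes lay above their placebo groups for Ly6e, with 288, 177, 130.3, 127 and 226 CPM in WT MAT2Ai libraries, against 95.5, 69.6, 65.5, 82.4 and 92.7 CPM in WT placebo libraries. Its log2 response was 1.59 in SP and 1.22 in WT, and its interaction was 0.37 ± 0.35 (SE, 95% interval -0.36 to 1.10). Psrc1 had responses of 2.63 in SP and 1.84 in WT, with an interaction of 0.79 ± 0.56 (SE, 95% interval -0.38 to 1.96). Dscaml1 was lowly expressed, at 0.244 to 0.91 CPM in SP MAT2Ai and 0.0156 to 0.0695 CPM in SP placebo libraries, and its interaction of 2.27 ± 0.79 (SE, 95% interval 0.62 to 3.92) had an unadjusted p of 0.0095. Passing in SP and not in WT does not show a difference between genotypes, and none of the 3 interactions passed. Without each of the 5 SP placebo libraries in turn, or without SP MAT2Ai replicate 2, 0 genes passed in the SP response, and without WT MAT2Ai replicate 2 there were 13 (0.0798%), all higher. In the WT response the count was 20 without WT MAT2Ai replicate 1, 3 without replicate 3, 27 without replicate 4 and 20 without replicate 5, and 0 without replicate 2.

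The SP and WT responses share no library, so each can be read in the genes picked by the other. Of the 497 genes with a positive SP response at an unadjusted p under 0.05, 371 (74.6%) were also positive in WT, where 52.6% of all genes were, and their median log2 value was 0.31 in SP and 0.10 in WT. Of the 1675 genes picked as positive in WT, 1187 (70.9%) were positive in SP, where 50.6% of all genes were, with medians of 0.08 in SP and 0.49 in WT. Without WT MAT2Ai replicate 2, 885 genes were picked in WT and 65.4% were positive in SP, against 49.5% of all genes. Genes picked by a p-value have larger values in the response that picked them, so these medians do not compare the sizes of the 2 responses. Across all 16152 genes the 2 responses had a Pearson correlation of 0.115 and a Spearman correlation of 0.232, a description over genes, which are not independent. Without WT MAT2Ai replicate 2 these were 0.0095 and 0.1675.

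**Figure D1:**
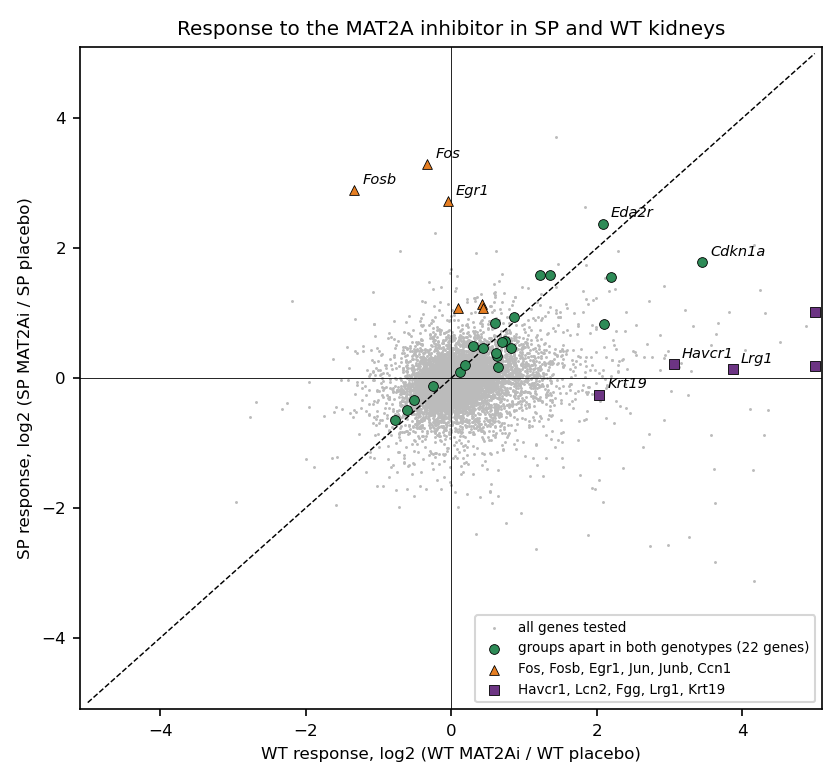
The log2 response to the inhibitor in SP kidneys (vertical axis) against that in WT kidneys (horizontal axis) for the genes tested, each point 1 gene and the dashed line equal responses. Of the genes, 8 lie beyond 5 on an axis, of which Lcn2 and Fgg are drawn at the right edge. The 22 genes whose inhibitor and placebo libraries did not overlap in either genotype lie mostly near the line, Fos, Fosb and Egr1 lie above it, and the injury and acute phase genes lie to its right.

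A set of genes differed between inhibitor and placebo in the same direction in both genotypes. SP MAT2Ai and SP placebo libraries did not overlap for 255 genes (1.58%), 171 higher (1.06%) and 84 lower (0.52%). WT MAT2Ai and WT placebo libraries did not overlap for 353 (2.19%), 246 higher (1.52%) and 107 lower (0.662%). For 22 genes the groups were apart in both genotypes, 18 higher with the inhibitor (0.111%) and 4 lower (0.0248%), and for 0 genes did the 2 genotypes part in opposite directions (percent called 0). Among the 18 were Phlda3, Ccng1, Eda2r, Cdkn1a, Gdf15, Tnfrsf10b, Sulf2, Ephx1, Ly6e, Ly6a, Exoc4, Slc22a21, Usp43, Tmem43, Ppil2, Aaas and Nub1, and the 4 were Abca3, Stbd1, B3galnt1 and Tmem178b. These genes were picked by their values, so their shared direction is a description. Of the 22, 2 had an interaction with an unadjusted p under 0.05, both negative, against 3.68% of all genes, and Slc22a21 was 1 of the 2. Ephx1, an epoxide hydrolase that detoxifies xenobiotics, had -0.15 ± 0.19 (SE, 95% interval -0.54 to 0.24), and Exoc4, a subunit of the exocyst, had 0.20 ± 0.13 (SE, 95% interval -0.070 to 0.47).

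Of the 18 genes, 7 were in the list of 39 p53 targets used here. Of that list 37 were tested, and the 18 were 0.111% of all 16152 genes tested. The list was chosen with earlier results of these data known, so this overlap is a description and not a test. p53 is a transcription factor that is stabilised by DNA damage and other stress, and its targets arrest the cell cycle, repair DNA or prepare cell death. Phlda3, a p53-induced inhibitor of AKT, was at 10.7, 8.44, 4.97, 4.6 and 4.38 CPM in SP MAT2Ai libraries, against 1.69, 2.57, 2.34, 1.49 and 2.92 CPM in SP placebo libraries. In WT it was at 9.36, 9.91, 7.07, 4.74 and 4.16 CPM in WT MAT2Ai libraries, against 3.07, 3.39, 2.26, 2.61 and 2.47 CPM in WT placebo libraries, so that neither pair of groups overlapped. Its log2 responses were 1.59 in SP and 1.35 in WT, and the interaction was 0.23 ± 0.39 (SE, 95% interval -0.58 to 1.05). Ccng1, cyclin G1, a strongly expressed p53 target in kidney, was at 489, 370.0, 329.9, 248 and 302 CPM in SP MAT2Ai libraries, against 167, 197, 198, 206 and 196 CPM in SP placebo libraries. Its WT levels were 452, 246, 279, 228 and 269.9 CPM in WT MAT2Ai libraries, against 202, 185, 186, 194 and 204 CPM in WT placebo libraries. Replicate 1 was the highest inhibitor library in both genotypes, and the interaction was 0.25 ± 0.23 (SE, 95% interval -0.24 to 0.73). Eda2r, a receptor of the TNF receptor family, was at 3.28, 2.54, 1.63, 1.13 and 1.63 CPM in SP MAT2Ai libraries, against 0.286, 0.228, 0.594, 0.277 and 0.57 CPM in SP placebo libraries. The corresponding WT levels were 3.6, 2.28, 1.14, 0.71 and 0.818 CPM in WT MAT2Ai libraries, against 0.36, 0.417, 0.275, 0.366 and 0.594 CPM in WT placebo libraries, and the interaction was 0.30 ± 0.60 (SE, 95% interval -0.96 to 1.55). Tnfrsf10b, the death receptor for TRAIL, had responses of 0.95 in SP and 0.86 in WT with an interaction of 0.089 ± 0.29 (SE, 95% interval -0.51 to 0.69). Sulf2, which trims sulfates from heparan sulfate, had a response of 0.58 in SP and of 0.74 in WT, with an interaction of -0.16 ± 0.20 (SE, 95% interval -0.57 to 0.26).

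Cdkn1a (p21), the cell cycle inhibitor, and Gdf15, a secreted stress hormone, were far higher in WT MAT2Ai replicate 2 than in any other library. Cdkn1a was at 18.9, 17.1, 22.5, 9.2 and 9.78 CPM in SP MAT2Ai libraries, against 6.23, 3.61, 4.06, 2.94 and 5.49 CPM in SP placebo libraries, and at 19.5, 237, 17.7, 31.1 and 11.7 CPM in WT MAT2Ai libraries, against 5.33, 5.62, 7.84, 4.64 and 5.52 CPM in WT placebo libraries. Its interaction was -1.66 ± 0.86 (SE, 95% interval -3.47 to 0.14) with all libraries and 0.0044 ± 0.39 (SE, 95% interval -0.80 to 0.81) without that replicate. Gdf15 was at 7.64 to 24.1 CPM in SP MAT2Ai and 3.13 to 6.01 CPM in SP placebo libraries, and WT MAT2Ai replicate 2 was at 85 CPM against 8.35 to 11.6 CPM in the other 4 WT MAT2Ai libraries. The Gdf15 interaction was -0.65 ± 0.74 (SE, 95% interval -2.20 to 0.90), and 0.72 ± 0.34 (SE, 95% interval 0.015 to 1.42) without that replicate, which turned its direction.

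Over the list, 35 of 37 p53 targets tested were positive in SP and 31 in WT, where 50.6% and 52.6% of all genes were, and the list medians were 0.30 in SP and 0.35 in WT against 0.00 and 0.01 for all genes. The list was chosen with earlier results of these data known and holds the genes picked above by their values. These counts and medians are therefore a description and not a test of the list. Psrc1 alone on the list passed in SP with 20 libraries, while 8 passed without WT MAT2Ai replicate 2 and 0 without any 1 of the SP placebo libraries. The interaction was positive for 21 of the 37 with a median of 0.055. Of the 37, 2 (Gtse1 and Trp53inp1) had an unadjusted p under 0.05, both negative, against 3.68% of all genes negative and 5.59% in either direction. Gtse1, a mitotic regulator of p53, was at 0.243 to 0.767 CPM in SP MAT2Ai and 0.152 to 0.328 CPM in SP placebo libraries, with an interaction of -2.16 ± 0.80 (SE, 95% interval -3.83 to -0.49), or -1.04 without WT MAT2Ai replicate 2. Trp53inp1, a p53 cofactor, was highest in WT MAT2Ai replicates 2 and 4, at 69.8 and 51.5 CPM, against 14.9 to 20.4 CPM in WT placebo libraries, and its interaction was -0.81 ± 0.35 (SE, 95% interval -1.55 to -0.074). The death receptor gene Fas had an interaction of -0.44 ± 0.27 (SE, 95% interval -1.01 to 0.12).

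The promoters of 2 of the shared p53 targets are shown because they carry the p53 half-site, the 10-base consensus that p53 binds in pairs. Each is the 250 bases before a RefSeq start site (GRCm38.p6), 5′ to 3′ on the gene's strand, with matches to the half-site consensus on either strand in capitals, and 7.13% of 32851 promoter windows of this length held at least 1 match.
Cdkn1a (chr17:29090729-29090978, plus strand): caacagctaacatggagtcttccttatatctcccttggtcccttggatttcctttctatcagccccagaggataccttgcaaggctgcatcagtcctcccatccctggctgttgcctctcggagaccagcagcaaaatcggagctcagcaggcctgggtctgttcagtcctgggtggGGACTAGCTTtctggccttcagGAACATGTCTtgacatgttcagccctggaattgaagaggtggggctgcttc
Ccng1 (chr11:40755287-40755536, minus strand): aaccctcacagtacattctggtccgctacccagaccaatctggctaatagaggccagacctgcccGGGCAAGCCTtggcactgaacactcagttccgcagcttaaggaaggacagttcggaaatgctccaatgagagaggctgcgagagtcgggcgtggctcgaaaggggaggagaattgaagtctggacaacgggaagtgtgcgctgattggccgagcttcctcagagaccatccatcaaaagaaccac
The Cdkn1a window belongs to 1 of 2 RefSeq start sites of the gene and held 2 matches, 73 and 51 bases before the start, and the Ccng1 window held 1. The Cdkn1a start site with the most matches was picked, and its other start site held none. Promoters of the other shared p53 targets are not shown. Because these windows were picked for their matches, the share of 7.13% is no test of enrichment. A match describes the letters only and does not show binding.

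**Figure D2:**
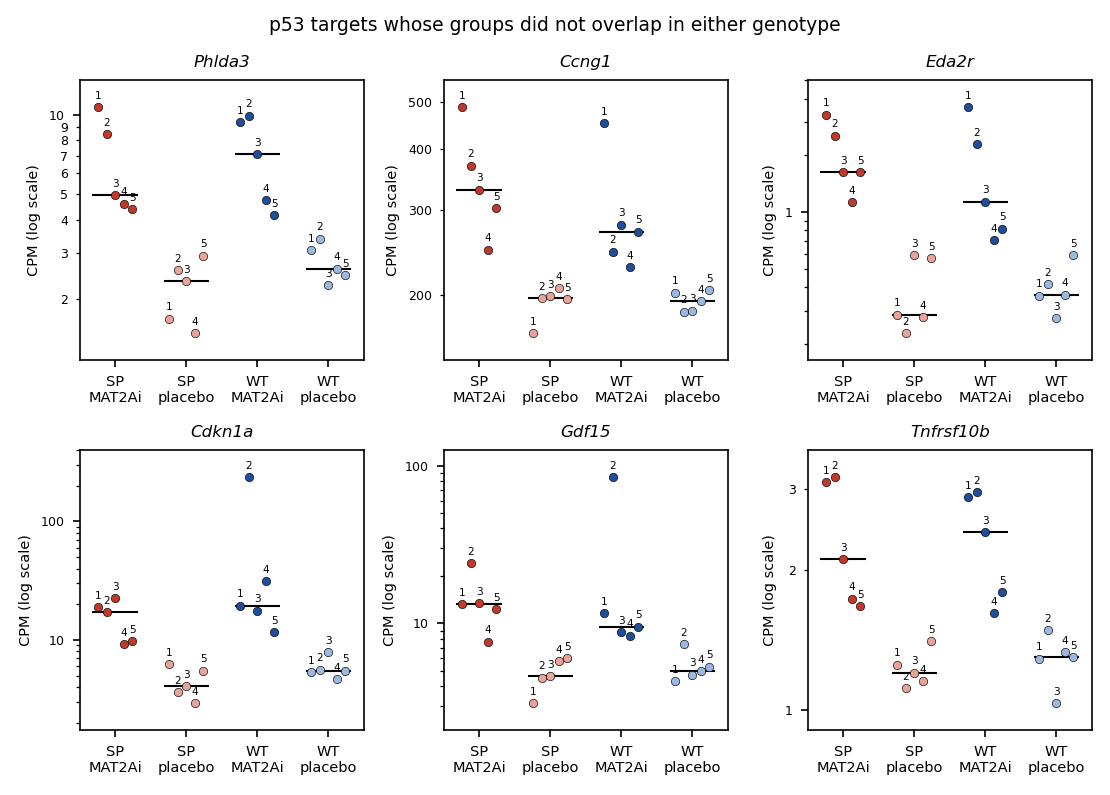
Level in CPM (log scale) of 6 p53 targets in each of the 20 libraries, with the replicate number beside each point and a line at each group's median. In both genotypes every inhibitor library lies above every placebo library, and WT MAT2Ai replicate 2 is the highest point for Cdkn1a and Gdf15.

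Some immediate early genes, which are among the first transcripts made after a stimulus, had large positive interactions. Fos (chr12:85473890-85477273), the AP-1 subunit c-Fos, was at 3.66, 12.3, 12.5, 2.01 and 20.1 CPM in SP MAT2Ai libraries, against 1.56, 0.898, 0.937, 0.583 and 1.14 CPM in SP placebo libraries. WT kidneys had 2.57, 8.68, 0.648, 2.59 and 1.08 CPM in WT MAT2Ai libraries, against 0.455, 4.66, 1.97, 8.63 and 3.88 CPM in WT placebo libraries. The SP groups did not overlap, with SP MAT2Ai replicates 2, 3 and 5 highest, while the WT groups overlapped. The log2 response was 3.30 in SP and -0.33 in WT, and the interaction was 3.63 ± 1.0 (SE, 95% interval 1.55 to 5.71), unadjusted p 0.0016, which did not pass adjustment. Without WT MAT2Ai replicate 2 it was 4.49 ± 0.93 (SE, 95% interval 2.54 to 6.44), unadjusted p 0.00012 and adjusted p 0.631.

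Egr1, a zinc finger factor induced by growth signals, placed the 5 SP MAT2Ai libraries in the same order as Fos did. It was at 6.27, 24.6, 26.1, 5.92 and 45.6 CPM in SP MAT2Ai libraries, against 4.16, 2.56, 4.17, 2.17 and 3.27 CPM in SP placebo libraries. The WT groups had 7.04, 26, 3.69, 6.06 and 3.18 CPM in WT MAT2Ai libraries, against 2.45, 14.8, 5.88, 14.3 and 10.1 CPM in WT placebo libraries. Again the SP groups did not overlap and WT MAT2Ai replicate 2 was the highest WT library, at 26 CPM. The interaction was 2.78 ± 0.86 (SE, 95% interval 0.99 to 4.57), and 3.66 ± 0.75 (SE, 95% interval 2.09 to 5.23) without that replicate. Fosb, another AP-1 subunit, was lowly expressed, with 0.211, 0.248, 0.5, 0.129 and 2.11 CPM in SP MAT2Ai libraries, against 0.0408, 0.107, 0.0625, 0.117 and 0.0974 CPM in SP placebo libraries, and its interaction was 4.22 ± 1.0 (SE, 95% interval 2.13 to 6.31).

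Jun and Junb, which pair with Fos proteins, had smaller values. Jun was at 34.4, 73.3, 92.8, 41.7 and 100.1 CPM in SP MAT2Ai libraries, against 28, 28.6, 32, 28.7 and 37.9 CPM in SP placebo libraries. In the WT groups the levels were 35.5, 109, 33.4, 46 and 41.6 CPM in WT MAT2Ai libraries, against 22.1, 54.3, 31.6, 46.4 and 44 CPM in WT placebo libraries. Its interaction was 0.72 ± 0.46 (SE, 95% interval -0.23 to 1.68) with all libraries and 1.17 ± 0.37 (SE, 95% interval 0.39 to 1.94) without WT MAT2Ai replicate 2. Junb was at 14 to 49.2 CPM in SP MAT2Ai and 12 to 17.5 CPM in SP placebo libraries, which overlapped, and its interaction was 0.65 ± 0.56 (SE, 95% interval -0.52 to 1.82), or 1.24 without that replicate. Ccn1, a secreted matrix protein and immediate early target, was at 38.6, 32.8, 51, 24.7 and 66.7 CPM in SP MAT2Ai libraries, against 17.2, 16.6, 24.1, 18 and 24.8 CPM in SP placebo libraries, and at 41.5, 83.6, 23.6, 19.5 and 29.7 CPM in WT MAT2Ai libraries, against 28.3, 37.5, 29.1, 44.6 and 45.6 CPM in WT placebo libraries. Its interaction was 0.99 ± 0.45 (SE, 95% interval 0.047 to 1.93), and 1.46 ± 0.35 (SE, 95% interval 0.73 to 2.19) without that replicate. Socs2, an inhibitor of growth hormone signalling, was at 18.4, 21.3, 26.6, 17.1 and 13.9 CPM in SP MAT2Ai libraries, against 5.94, 4.26, 6.78, 13.7 and 10.8 CPM in SP placebo libraries, so that the groups met but did not overlap, and its interaction was 0.90 ± 0.59 (SE, 95% interval -0.33 to 2.13), or 1.66 without WT MAT2Ai replicate 2, where it was at 37 CPM. Dusp6, a phosphatase of ERK, had an interaction of 0.56 ± 0.17 (SE, 95% interval 0.20 to 0.93).

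With 20 libraries the list medians of these families lay near that of all genes. Of 14 AP-1 family genes tested, 12 were positive in SP and 12 in WT, and the interaction was positive for 6 with a median of -0.05, or for 9 with a median of 0.15 without WT MAT2Ai replicate 2. Of 32 immediate early genes outside AP-1, the interaction was positive for 15 with a median of -0.04, or for 20 with a median of 0.11 without it. WT placebo replicates 2, 4 and 5 were themselves above all SP placebo libraries for Fos, Egr1 and Jun, at 4.66, 8.63 and 3.88 CPM for Fos. The part that this spread among WT placebo libraries has in the interactions was not tested.

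The promoters of 3 immediate early genes, Fos, Fosb and Ccn1, are shown for the letters TGACG, the core of the cAMP response element, searched on both strands (CGTCA on the other). In all 3 genes the 2 highest SP MAT2Ai libraries were replicates 5 and 3. The same held for Egr1 and Jun, whose promoters are not shown. Capitals mark each match in the 250 bases before the RefSeq start site (GRCm38.p6, 5′ to 3′ on the gene's strand), and 17.8% of 32851 windows of this length held TGACG.
Fos (chr12:85473640-85473889, plus strand): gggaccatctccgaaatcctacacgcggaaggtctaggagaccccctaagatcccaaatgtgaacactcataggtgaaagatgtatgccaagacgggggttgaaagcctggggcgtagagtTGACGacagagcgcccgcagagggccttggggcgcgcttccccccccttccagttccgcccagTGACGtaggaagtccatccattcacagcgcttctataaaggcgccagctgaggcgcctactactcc
Fosb (chr7:19310046-19310295, minus strand): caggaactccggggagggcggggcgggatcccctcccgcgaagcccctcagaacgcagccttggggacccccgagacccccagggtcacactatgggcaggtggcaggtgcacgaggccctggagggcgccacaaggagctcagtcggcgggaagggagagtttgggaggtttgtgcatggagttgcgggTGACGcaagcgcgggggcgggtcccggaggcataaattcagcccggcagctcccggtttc
Ccn1 (chr3:145649986-145650235, minus strand): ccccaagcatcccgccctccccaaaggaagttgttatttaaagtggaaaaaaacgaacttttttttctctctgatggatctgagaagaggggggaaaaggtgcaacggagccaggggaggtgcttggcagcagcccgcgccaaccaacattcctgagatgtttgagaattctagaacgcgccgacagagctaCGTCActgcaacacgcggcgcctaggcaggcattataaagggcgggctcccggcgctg
The Fos window held 2 matches, 129 and 66 bases before the start, the Fosb window 1 at 60 bases and the Ccn1 window 1 at 58 bases. These promoters were not compared with those of Egr1, Jun or a gene chosen otherwise, and a match is not evidence that a factor binds there.

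**Figure D3:**
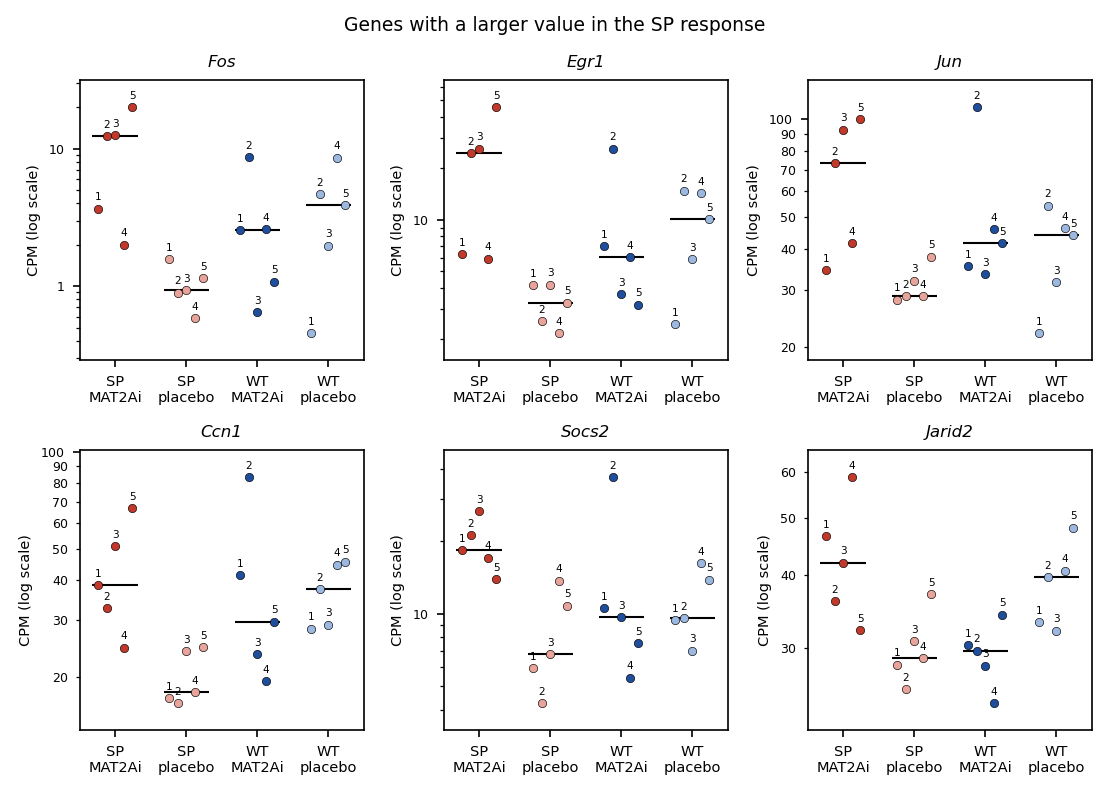
Level in CPM (log scale) of Fos, Egr1, Jun, Ccn1, Socs2 and Jarid2 in each library, with the replicate number beside each point and a line at each group's median. SP MAT2Ai libraries lie mostly above SP placebo libraries, WT groups overlap, and WT MAT2Ai replicate 2 is the highest WT library for all but Jarid2.

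Outside the immediate early genes, the smallest interaction p among named genes with a mean of at least 1 CPM, after that of Adgrf3, belonged to Jarid2 (chr13:44729474-44921643), a DNA-binding partner of the polycomb repressive complex PRC2, which methylates lysine 27 of histone H3. Jarid2 was at 46.6, 36.1, 42, 58.9 and 32.2 CPM in SP MAT2Ai libraries, against 28, 25.4, 30.7, 28.8 and 37 CPM in SP placebo libraries. In WT it was at 30.3, 29.6, 27.9, 24.1 and 34.2 CPM in WT MAT2Ai libraries, against 33.2, 39.7, 32.1, 40.7 and 48.2 CPM in WT placebo libraries. The SP groups overlapped only at SP MAT2Ai replicates 2 and 5 and SP placebo replicate 5, and the WT groups only at WT MAT2Ai replicate 5 and WT placebo replicates 1 and 3. The log2 response was 0.52 in SP and -0.41 in WT, and the interaction was 0.93 ± 0.21 (SE, 95% interval 0.50 to 1.36), unadjusted p 0.00022. It was 0.94 without WT MAT2Ai replicate 2. Jarid2 was the only 1 of 15 genes of PRC2 and the H3K27 demethylases with an unadjusted p under 0.05, against 5.59% of all genes in either direction. Of the 15 interactions 6 were positive, with a median of -0.06. Aebp2, another PRC2 cofactor, had an interaction of 0.11 ± 0.083 (SE, 95% interval -0.059 to 0.29).

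Larp4b, an RNA-binding protein that stabilises mRNA, was at 116, 104, 125, 121 and 107 CPM in SP MAT2Ai libraries, against 98.1, 88.5, 98.6, 100.4 and 116 CPM in SP placebo libraries. Its WT levels were 94.4, 83, 92.7, 85.4 and 98.7 CPM in WT MAT2Ai libraries, against 93.1, 98.6, 119.5, 118 and 126 CPM in WT placebo libraries, and the interaction was 0.48 ± 0.12 (SE, 95% interval 0.23 to 0.74). Zfp810, a zinc finger gene, was at 44 to 81 CPM in SP MAT2Ai and 32.8 to 52.9 CPM in SP placebo libraries, with an interaction of 0.87 ± 0.24 (SE, 95% interval 0.37 to 1.37). Another 3 genes had narrow spreads and small values: the transcription factor Deaf1 with 0.32 ± 0.086, and the ubiquitin ligases Rnf114 with 0.27 ± 0.077 and Rnf152 with 0.51 ± 0.15 (SE). For Rnf114 every SP MAT2Ai library (68.1 to 71.9 CPM) lay above every SP placebo library (64 to 67 CPM), while WT MAT2Ai libraries (50.1 to 63 CPM) overlapped WT placebo libraries (59.8 to 68.5 CPM).

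Genes of fatty acid oxidation leaned the same way. Ehhadh, the bifunctional enzyme of peroxisomal beta-oxidation, was at 472, 414, 494, 373 and 473 CPM in SP MAT2Ai libraries, against 322, 331, 349, 388 and 390.1 CPM in SP placebo libraries. WT kidneys had 262, 300.1, 316, 292 and 293 CPM in WT MAT2Ai libraries, against 319, 269, 375, 334 and 328 CPM in WT placebo libraries. Its log2 response was 0.32 in SP and -0.15 in WT, with an interaction of 0.47 ± 0.13 (SE, 95% interval 0.21 to 0.74), unadjusted p 0.0013. Of 34 genes of fatty acid oxidation and PPAR alpha targets, 28 had a positive interaction with a median of 0.17, and 31 with a median of 0.22 without WT MAT2Ai replicate 2, against -0.01 for all genes with 20 libraries. At an unadjusted p under 0.05 there were 3 of the 34, all positive, against 1.91% of all genes, or 9 without that replicate, against 2.01%. Acadl and Hadh, mitochondrial dehydrogenases of the pathway, had interactions of 0.24 ± 0.11 and 0.27 ± 0.12 (SE). Pdk4, the kinase that holds back pyruvate oxidation, was at 244 CPM in WT MAT2Ai replicate 2 and 5.6 to 14.3 CPM in the other WT MAT2Ai libraries, and its interaction was -2.21 with that replicate and 0.33 without it.

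The 13 mRNAs encoded by mitochondrial DNA were all positive in the interaction, with a median of 0.18. Of the 13, 1 had an unadjusted p under 0.05, against 5.59% of all genes in either direction. It was mt-Co3, a subunit of cytochrome oxidase, with an interaction of 0.52 ± 0.20 (SE, 95% interval 0.093 to 0.94). These transcripts come from 1 genome, and the mitochondrial share of counts ran from 12.4% to 22.2% over the libraries. Markers of the S1 and S2 proximal tubule had 16 of 21 positive interactions with a median of 0.14, and of the S3 segment 12 of 15 with a median of 0.13, or 0.10 and 0.03 without WT MAT2Ai replicate 2. The lean was not particular to the proximal tubule. Thick ascending limb and distal convoluted tubule markers had 9 of 14 positive, and collecting duct markers 12 of 15, both with a median of 0.12. Without that replicate these 2 medians were 0.03 and 0.07. Of all genes 47.2% were positive with 20 libraries. Slc4a4, the basolateral bicarbonate transporter, and Slc22a6, the organic anion transporter OAT1, had interactions of 0.27 ± 0.12 and 0.32 ± 0.15 (SE). In bulk cortex, fewer cells of a type and less RNA per cell cannot be told apart.

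Among genes with a mean of at least 1 CPM, those with the smallest unadjusted p on the negative side had moderate values and small errors. Efemp2 (chr19:5473954-5482517), fibulin-4, which organises elastic fibres, was at 3.25, 3.11, 3.37, 3.74 and 3.07 CPM in SP MAT2Ai libraries, against 4.87, 5.25, 3.61, 4.2 and 4.65 CPM in SP placebo libraries. The WT groups had 5.72, 9.94, 6.3, 5.2 and 4.16 CPM in WT MAT2Ai libraries, against 3.94, 5.31, 4.24, 3.74 and 4.38 CPM in WT placebo libraries. SP MAT2Ai replicate 4 lay just above SP placebo replicate 3, the only overlap in SP, while in WT the groups overlapped and WT MAT2Ai replicate 2 was highest. The interaction was -0.98 ± 0.25 (SE, 95% interval -1.50 to -0.47), unadjusted p 0.00074. Fxyd5, a regulator of the sodium pump and of cell adhesion, was at 5.04, 4.73, 3.57, 4.9 and 3.74 CPM in SP MAT2Ai libraries, against 6.71, 6.58, 5.17, 4.49 and 7.2 CPM in SP placebo libraries. In the WT groups the levels were 7.57, 8.9, 8.18, 9.06 and 7.5 CPM in WT MAT2Ai libraries, against 6.71, 8.29, 6.76, 5.49 and 5.8 CPM in WT placebo libraries, and the interaction was -0.77 ± 0.20 (SE, 95% interval -1.19 to -0.36). Jag2, a Notch ligand, was at 2.71, 2.1, 2.27, 3.47 and 2.46 CPM in SP MAT2Ai libraries, against 5.01, 3.67, 3.94, 3.6 and 4.23 CPM in SP placebo libraries, with no overlap. Its WT levels were 3.57, 3.85, 6.33, 5.36 and 4.98 CPM in WT MAT2Ai libraries, against 3.22, 4.31, 4.95, 3.84 and 3.91 CPM in WT placebo libraries, and the interaction was -0.90 ± 0.24 (SE, 95% interval -1.39 to -0.41). Tmem47, a cell junction protein, was at 1.61 to 2.69 CPM in SP MAT2Ai and 2.59 to 4.86 CPM in SP placebo libraries, with an interaction of -0.94 ± 0.26 (SE, 95% interval -1.48 to -0.40).

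For another set the WT side held most of the difference. Tinagl1, a matrix protein, was at 35.7, 30.2, 33.3, 28.8 and 28.4 CPM in SP MAT2Ai libraries, against 34.2, 32.5, 29.7, 31.4 and 39 CPM in SP placebo libraries, and at 33.1, 66.1, 53.5, 58 and 36.4 CPM in WT MAT2Ai libraries, against 25.5, 33.2, 32.1, 32.2 and 29.9 CPM in WT placebo libraries. Its interaction was -0.78 ± 0.21 (SE, 95% interval -1.22 to -0.35), with WT MAT2Ai replicates 2, 3 and 4 highest. Ptp4a3, a phosphatase, was highest in WT MAT2Ai replicates 1 and 2, at 23.7 and 22.9 CPM, against 8.97 to 11.6 CPM in WT placebo libraries, with an interaction of -0.93 ± 0.25 (SE, 95% interval -1.45 to -0.41). Prdm11, a zinc finger gene, and Pqlc3 had interactions of -0.77 ± 0.20 and -0.63 ± 0.20 (SE).

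Sterol genes leaned negative. Of 23 genes of cholesterol synthesis and its control, 4 had a positive interaction, against 47.2% of all genes, the median was -0.20, and 5 had an unadjusted p under 0.05, all negative, against 3.68% of all genes. Sqle, squalene epoxidase, was at 72.8, 72.6, 68.2, 76 and 64.9 CPM in SP MAT2Ai libraries, against 84.5, 74.4, 78.6, 87.4 and 87.9 CPM in SP placebo libraries, and at 72.7, 147, 92.8, 96.1 and 94.8 CPM in WT MAT2Ai libraries, against 89.1, 70.2, 79.4, 83.7 and 75.8 CPM in WT placebo libraries, with an interaction of -0.56 ± 0.18 (SE, 95% interval -0.92 to -0.19). Msmo1, a later enzyme of the pathway, had -0.69 ± 0.24 (SE, 95% interval -1.18 to -0.20). Without WT MAT2Ai replicate 2 the list median was -0.13.

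Endothelial, matrix and macrophage markers had negative median interactions and negative SP medians of -0.46, -0.28 and -0.33. Their WT medians were -0.10, 0.14 and 0.17. Leaving out each library in turn, the SP medians ran from -0.57 to -0.40, from -0.40 to -0.17 and from -0.49 to -0.20. None of 14 endothelial markers had a positive interaction (median -0.29, or -0.44 without WT MAT2Ai replicate 2), and 13 of the 14 were negative in SP, 6 with an unadjusted p under 0.05, against 2.84% of all genes. Their summed level was 173 to 249 CPM in SP MAT2Ai libraries, against 211 to 335 CPM in SP placebo libraries, and 182 to 401 CPM in WT MAT2Ai libraries, against 242 to 455 CPM in WT placebo libraries. Esam, an endothelial junction protein, was at 7.79, 6.82, 8.38, 9.23 and 6.94 CPM in SP MAT2Ai libraries, against 15.3, 10.7, 9.25, 7.58 and 16.8 CPM in SP placebo libraries, and its interaction was -0.77 ± 0.34 (SE, 95% interval -1.47 to -0.063). Cdh5, VE-cadherin, was at 9.22, 7.51, 9, 9.8 and 7.3 CPM in SP MAT2Ai libraries, against 14.8, 11.8, 10.1, 8.51 and 15.8 CPM in SP placebo libraries, with an interaction of -0.52 ± 0.27 (SE, 95% interval -1.07 to 0.039). Pecam1 and Emcn had interactions of -0.41 ± 0.26 and -0.77 ± 0.41 (SE), and Emcn was at -0.40 without WT MAT2Ai replicate 3. Of 30 fibrosis and matrix genes, 1 was positive and the median was -0.39, or -0.22 without SP placebo replicate 5. Tgfb1, the profibrotic cytokine, was at 6.7, 6.35, 6.17, 7.2 and 5.51 CPM in SP MAT2Ai libraries, against 9.2, 9.09, 7.39, 5.8 and 10.2 CPM in SP placebo libraries, with an interaction of -0.53 ± 0.20 (SE, 95% interval -0.94 to -0.12). For Esam, Cdh5 and Tgfb1 the highest SP placebo libraries were 1, 2 and 5, and the labels of 1 and 2 are uncertain. Over all alternatives, which include leaving out both, their interactions ran from -0.89 to -0.50, from -0.62 to -0.35 and from -0.63 to -0.36. Pdgfra, a fibroblast receptor, had -1.19 ± 0.52 (SE, 95% interval -2.28 to -0.10), and Postn, periostin, had -2.20 ± 0.68 (SE, 95% interval -3.62 to -0.78). Macrophage and dendritic cell markers had 1 positive interaction of 20 with a median of -0.46. They summed to 149 to 311 CPM in SP MAT2Ai libraries, against 216 to 370.0 CPM in SP placebo libraries, and to 318 to 2920 CPM in WT MAT2Ai libraries, highest in replicate 5, against 290 to 386 CPM in WT placebo libraries. Lymphocyte markers had 5 positive interactions of 17 with a median of -0.25, and neutrophil markers 4 of 7 with a median of 0.16. The 20 ER chaperones had 1 positive interaction and a median of -0.17, and in SP 8 of them were lower at an unadjusted p under 0.05, against 2.84% of all genes.

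Several gene groups with strongly negative medians were high in a single WT MAT2Ai library, a different library for each set. WT MAT2Ai replicate 2 had the highest levels of tubular injury markers. Havcr1 (KIM-1), the standard marker of injured proximal tubule, was at 24.4, 65.9, 23.8, 28.7 and 18.3 CPM in SP MAT2Ai libraries, against 28.5, 13.7, 23.8, 30.8 and 42.3 CPM in SP placebo libraries, and at 52.5, 1214, 74.4, 43.8 and 20.6 CPM in WT MAT2Ai libraries, against 34.1, 29.1, 27.3, 50.8 and 27.2 CPM in WT placebo libraries. Its interaction was -2.85 ± 1.11 (SE, 95% interval -5.17 to -0.52) with that library and -0.29 ± 0.51 (SE, 95% interval -1.35 to 0.77) without it. Lcn2 (NGAL), a secreted injury marker, was at 676 CPM there and 1.06 to 19.4 CPM in the other WT MAT2Ai libraries, and its interaction was -5.39, or -1.06 without it. Of 30 injury markers 29 had a negative interaction with a median of -0.95 and 14 an unadjusted p under 0.05, against 3.68% of all genes. Without replicate 2 the median was -0.30 and 5 were under 0.05, against 3.07%. Krt18 and Krt19, simple epithelial keratins, had values of -0.76 and -1.97 without that library, and Cryab, a small heat shock protein, -1.80. Other libraries also moved these values, with Cryab at -1.05 without WT MAT2Ai replicate 3 and Krt19 at -1.60 without SP placebo replicate 5.

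Acute phase genes followed the same library. Fgg, the fibrinogen gamma chain, was at 1.04 to 1.96 CPM in SP MAT2Ai libraries, against 1.05 to 1.36 CPM in SP placebo libraries, and at 1.29, 568, 16.2, 2.63 and 0.957 CPM in WT MAT2Ai libraries, against 1.14, 1.32, 1.75, 1.25 and 1.53 CPM in WT placebo libraries. Fga, the alpha chain, reached 1619 CPM and Lrg1, a secreted glycoprotein, 254 CPM in that library. All 16 acute phase and complement genes tested had a negative interaction with a median of -1.38, which was -0.21 with 5 positive without WT MAT2Ai replicate 2. The metallothioneins Mt1 and Mt2 were at 877 and 705 CPM in it, against 84.5 to 162 CPM and 42.4 to 98.8 CPM in the other WT MAT2Ai libraries. Integrated stress response and serine synthesis genes had a median of -0.42, or -0.06 without it. Asns, asparagine synthetase, had an interaction of -1.25, or -0.48 without it, whereas Nupr1, a stress-induced nuclear protein, had -1.22 and -1.15. Plin4, a lipid droplet protein, had -2.44 and -1.34. Nupr1 was at -0.78 without WT MAT2Ai replicate 3.

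WT MAT2Ai replicate 5 carried antigen presentation genes. Iigp1, an interferon-inducible GTPase, was at 3.83, 4.08, 3.05, 1.94 and 205 CPM in WT MAT2Ai libraries, against 3.2, 2.84, 2.33, 5.62 and 3.49 CPM in WT placebo libraries. H2-K1, a class I heavy chain, was at 75.3 to 106 CPM in SP MAT2Ai libraries, against 95.3 to 107 CPM in SP placebo libraries, and at 122, 209.8, 111, 106 and 766 CPM in WT MAT2Ai libraries, against 119.6, 119, 97.5, 111 and 102 CPM in WT placebo libraries. Psmb8, an immunoproteasome subunit, was at 129 CPM in that library, Nlrc5, the class I transactivator, at 9.5 CPM, and the class II genes Cd74 and H2-Ab1 at 1720 and 582 CPM. None of the 14 class I and immunoproteasome genes had a positive interaction and the median was -1.09, but without WT MAT2Ai replicate 5 it was -0.20. The median of 29 interferon-stimulated genes was -0.41 with 3 positive, and -0.0043 without that library. Irf1 and Gbp2, a factor and a GTPase of the interferon gamma response, were at 45.7 and 42.2 CPM there. The summed level of interferon-stimulated genes was 262 to 577 CPM in SP MAT2Ai libraries, against 189 to 241 CPM in SP placebo libraries, which did not overlap, and 247 to 1166 CPM in WT MAT2Ai libraries, against 190.0 to 253 CPM in WT placebo libraries. Ly6e supplied much of these sums, and without it they were 113 to 171 CPM in SP MAT2Ai libraries, against 120.3 to 153 CPM in SP placebo libraries, which overlapped, and 120.4 to 940.3 CPM in WT MAT2Ai libraries, against 124 to 170.1 CPM in WT placebo libraries.

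WT MAT2Ai replicate 3, and to a lesser degree SP placebo replicate 5, had the highest levels of urothelial markers, which belong to the lining of the renal pelvis and not to cortex. The 9 urothelial markers, listed after these values were seen, summed to 52.5 CPM in WT MAT2Ai replicate 3 and 13.0 CPM in SP placebo replicate 5, and to at most 5.75 CPM in any other library. Upk3a, a uroplakin, was at 0.0813, 0.102, 0.183, 0.09 and 0.0608 CPM in SP MAT2Ai libraries, against 0.15, 0.35, 0.0469, 0.321 and 2.84 CPM in SP placebo libraries, and at 0, 0.0155, 8.67, 0.764 and 0.278 CPM in WT MAT2Ai libraries, against 0.246, 0.193, 0.0808, 0.249 and 0.0156 CPM in WT placebo libraries. Upk1a, Krt5 and Psca were likewise highest in WT MAT2Ai replicate 3, at 6.3, 4.46 and 17.4 CPM. The urothelial median interaction was -5.17, and -2.50 without that library. Markers of the inner medulla summed to 1646 to 1839 CPM in SP MAT2Ai libraries, against 1763 to 1905 CPM in SP placebo libraries. In WT the sums overlapped, with 1521 to 2097 CPM in WT MAT2Ai libraries, highest in replicate 3, against 1740 to 2021 CPM in WT placebo libraries. Of the 8 inner medullary markers 1 had a positive interaction, and the median was -0.74, or -0.39 without WT MAT2Ai replicate 3. Slc14a2, a urea transporter of the inner medulla, was at 0.113, 15.7, 34.6, 3.8 and 0.209 CPM in WT MAT2Ai libraries, against 1.37, 0.298, 0.485, 0.615 and 0.344 CPM in WT placebo libraries. Vcan, a matrix proteoglycan, at 14.9 CPM, and Adgrf3, an adhesion receptor, at 40.1 CPM, were also highest there. Adgrf3, the only gene that DESeq2 and the likelihood ratio test called with all libraries, was at 0.0163, 0, 0, 0 and 0.0152 CPM in SP MAT2Ai libraries, against 0, 12.3, 0.359, 0.0583 and 0.223 CPM in SP placebo libraries, and at 0, 0.109, 40.1, 2.52 and 0.104 CPM in WT MAT2Ai libraries, against 0.019, 0.0298, 0, 0 and 0.0625 CPM in WT placebo libraries, so that 3 libraries of 20 held most of its reads, and no fold change is given. Fst, follistatin, was at 5.88 to 6.20 CPM in WT MAT2Ai replicates 2, 3 and 4 and at 7.64 CPM in SP placebo replicate 5, and at most at 1.56 CPM elsewhere. Angpt2, a vessel-destabilising ligand, and Fabp4, a lipid carrier of capillaries and fat, were also highest in WT MAT2Ai replicate 3 and SP placebo replicate 5 within their groups, with interactions of -1.51 ± 0.45 and -1.0 ± 0.40 (SE). The part that other tissue in these libraries has in any other result was not tested.

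**Figure D4:**
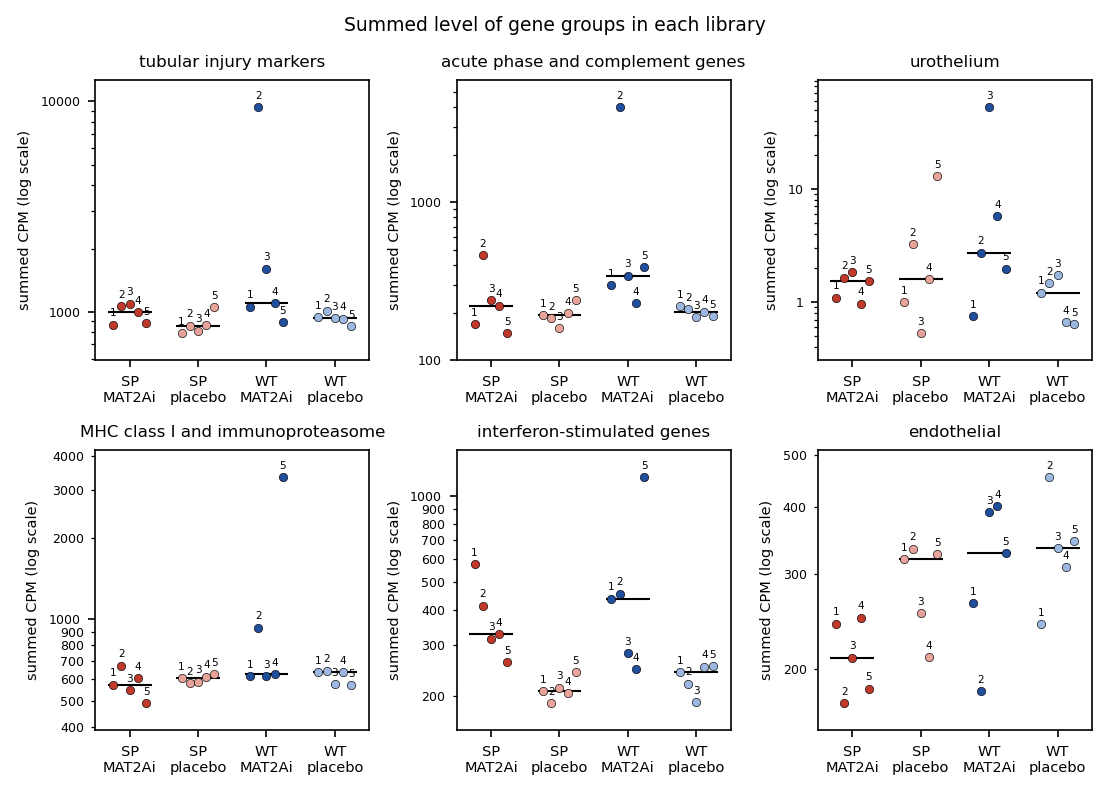
Summed level in CPM (log scale) of 6 gene groups in each library, with the replicate number beside each point and a line at each group's median. WT MAT2Ai replicate 2 is highest for injury and acute phase genes, replicate 5 for class I and interferon genes, and replicate 3 for urothelial genes, while the lowest endothelial sums are 173, 182 and 184 CPM in SP MAT2Ai replicate 2, WT MAT2Ai replicate 2 and SP MAT2Ai replicate 5.

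Among inflammatory genes that the study names, Tnf and Il6 had too few counts to be tested (at most 0.191 and 0.155 CPM in any library), and none of those tested passed the test of genotype dependence. Nfkb1, Rela, Relb and Nfkb2, subunits of NF-kB, had interactions of -0.071 ± 0.14, -0.14 ± 0.20, -0.16 ± 0.37 and -0.0059 ± 0.27 (SE), and all 4 turned positive without WT MAT2Ai replicate 2. The 95% interval for Nfkb1 was -0.37 to 0.23. Of 25 NF-kB subunits and regulators 8 had a positive interaction with a median of -0.09, and 17 with a median of 0.07 without that replicate. Of 16 NF-kB target cytokines and adhesion genes tested, 1 had a positive interaction with a median of -0.52, and the list medians were 0.22 in SP and 0.73 in WT, where 9 of the 16 were higher at an unadjusted p under 0.05, against 10.4% of all genes. Without WT MAT2Ai replicate 2 the interaction was positive for 7 with a median of -0.30, the medians were 0.22 in SP and 0.34 in WT, and 1 of the 16 was higher in WT at that p, against 5.43% of all genes. Icam1, an adhesion molecule and NF-kB target, was at 14.4, 44.8, 39.1, 25.2 and 18.6 CPM in SP MAT2Ai libraries, against 19.5, 19.8, 18, 20 and 21 CPM in SP placebo libraries. Its WT levels were 24.7, 85.9, 24, 22 and 25.9 CPM in WT MAT2Ai libraries, against 21.3, 25.5, 18, 15.9 and 18.6 CPM in WT placebo libraries. Its interaction was -0.35 ± 0.48 (SE, 95% interval -1.34 to 0.64) and turned to 0.25 ± 0.31 (SE, 95% interval -0.41 to 0.90) without WT MAT2Ai replicate 2. Il1b had 0.70 ± 0.57 (SE, 95% interval -0.49 to 1.88) and Ccl2 had -0.44 ± 0.57 (SE, 95% interval -1.63 to 0.76). Ecsit, an adaptor of Toll-like receptor signalling and complex I assembly, had 0.16 ± 0.13 (SE, 95% interval -0.12 to 0.44), and Mtor had 0.024 ± 0.13 (SE, 95% interval -0.24 to 0.29).

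Neither the target of the inhibitor nor any gene of the methionine cycle passed. Mat2a (chr6:72432799-72439558), whose mRNA is stabilised when S-adenosylmethionine is low, was at 362, 368, 317, 485 and 405 CPM in SP MAT2Ai libraries, against 363, 265, 379, 474 and 335 CPM in SP placebo libraries. WT kidneys had 391.8, 525, 504, 494 and 398 CPM in WT MAT2Ai libraries, against 452, 345, 365, 314 and 315 CPM in WT placebo libraries. Both pairs of groups overlapped, and the interaction was -0.28 ± 0.20 (SE, 95% interval -0.69 to 0.14). Of 24 genes of the methionine cycle and salvage 13 were positive with a median of 0.02, and of 15 arginine methyltransferases and partners 6 were positive with a median of -0.02. Slc5a2 had an interaction of -0.88 ± 0.56 (SE, 95% interval -2.04 to 0.29), which became 0.44 without the libraries labelled SP placebo 1 and 2. Slc5a1, encoding SGLT1, the glucose transporter of the later proximal tubule, had -0.19 ± 0.19 (SE, 95% interval -0.58 to 0.20). Malat1, an abundant nuclear RNA, was at 605 to 1393 CPM in SP MAT2Ai and 439.7 to 1019 CPM in SP placebo libraries, with an interaction of -0.70 ± 0.37 (SE, 95% interval -1.47 to 0.076). By its sign, the WT response of Malat1 lay above the SP response. SP MAT2Ai replicate 4 alone was at 1393 CPM, the others of its group at most at 811 CPM, and without it the interaction was -0.96. Among clock genes, Bhlhe40, a repressor of the clock, had 0.55 ± 0.16 (SE, 95% interval 0.21 to 0.88) and Ciart, another repressor, had -0.94 ± 0.41 (SE, 95% interval -1.80 to -0.071), and 7 of 20 clock genes were positive with a median of -0.13.

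**Figure D5:**
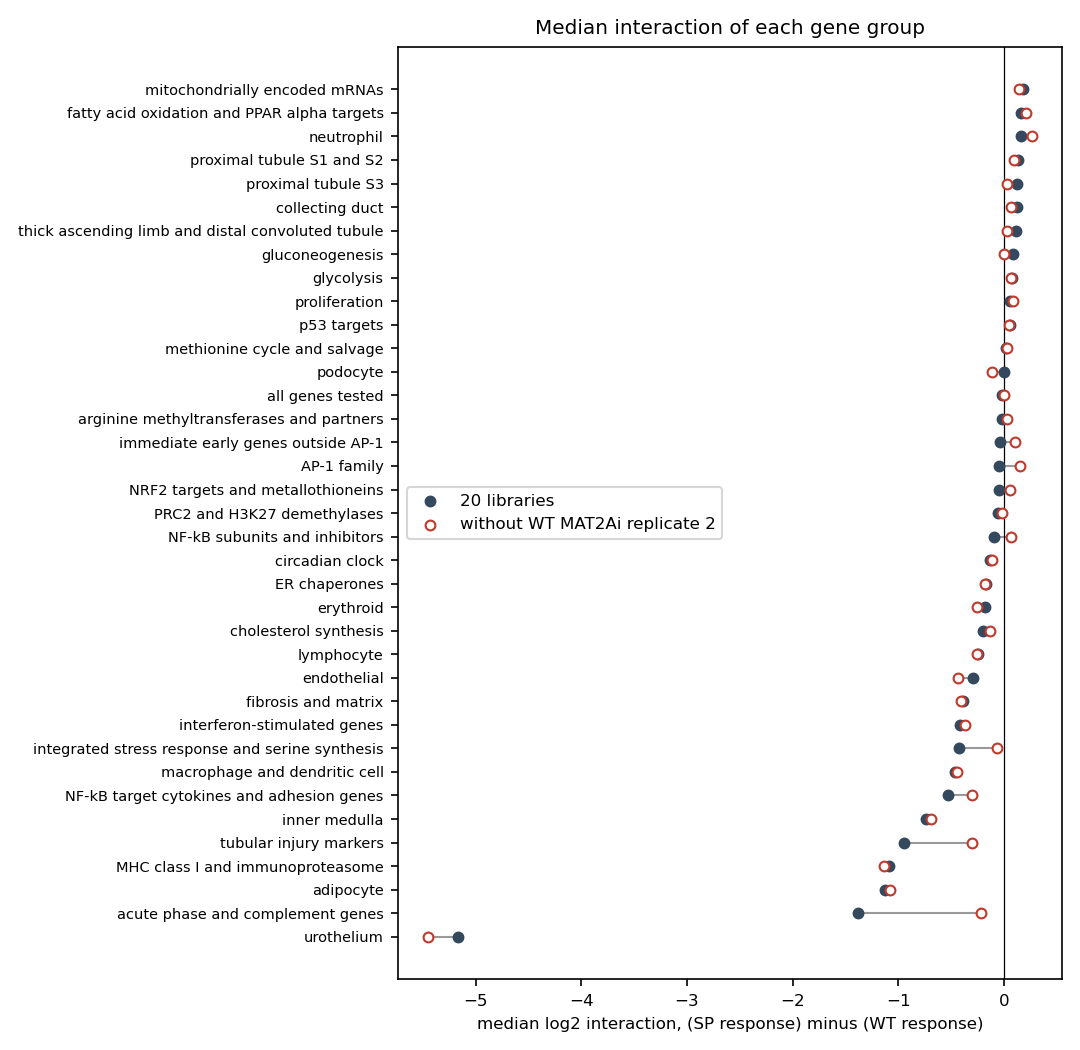
Median log2 interaction (SP response minus WT response) of each gene group and of all genes tested, with filled points for 20 libraries and open points without WT MAT2Ai replicate 2. Fatty acid oxidation genes lie right of 0 in both, and the injury and acute phase groups shift from -0.95 and -1.38 to -0.30 and -0.21 when that library is left out.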

How the data were processed

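Kidney cortex poly(A) RNA of 20 libraries was analysed, 5 in each of 4 groups named in the sample titles. The deposited values are raw counts per gene, for which the authors aligned reads to mm10 with STAR v2.5.2 and counted them with htseq on Ensembl 78 annotation; the strand setting is not given in the sources used here, so overlapping and antisense genes are uncertain. The 5 summary lines of each table were left out; reads in no gene were 3.87% to 5.49% and ambiguous reads 0.702% to 0.794%. Symbols and coordinates came from GENCODE M21 (GRCm38), which matched 42546 of 43430 genes; promoters came from RefSeq.

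Counts were filtered with filterByExpr, scaled by TMM and tested with edgeR 4.0.16 in R 4.3.3 (quasi-likelihood F test, group means, no block, Benjamini-Hochberg adjustment over all genes tested). The interaction was (SP MAT2Ai minus SP placebo) minus (WT MAT2Ai minus WT placebo), an adjusted p under 0.05 was called, and standard errors are the log2 value over the root of F. Alternatives were DESeq2 1.42.0, limma 3.58.1 (voom), the likelihood ratio test, other scaling and filters, the replicate block, and leaving out libraries. The scripts were tested on simulated counts.

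Genes named were those the study names, the 8 with the smallest interaction p in each direction in each fit with a mean of at least 1 CPM, called genes (up to 10), and up to 4 of smallest p of each list; predicted gene models were passed over, and a few genes that the rule names are not reported here. Members and lists were chosen with earlier results of these data known. The 22 genes with groups apart in both genotypes, the genes that describe single libraries, and the urothelial and inner medullary lists were chosen after their values were seen.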

Additional observations from a re-analysis of the deposited data

Results flagged for a closer look

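Within each group of 5 libraries, the highest or lowest level of each of 100 of the genes named in the text was compared with its nearest neighbour. In 60 of 400 combinations of gene and group (15%), that gap exceeded 0.71 of the group's range, Dixon's 95% critical value for 5 samples, where chance gives about 1 in 20. Some of these genes were named because they describe a single library and CPM values are skewed, so the share is a description and not a test. The values follow as CPM, each with the range of the other 4 libraries of its group.

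WT MAT2Ai replicate 2 stood above the rest of its group for 21 genes. It held Fos at 8.68 CPM (others 0.648 to 2.59), Egr1 at 26 CPM (others 3.18 to 7.04), Jun at 109 CPM (others 33.4 to 46) and Socs2 at 37 CPM (others 5.43 to 10.5). The same library had Icam1 at 85.9 CPM (others 22 to 25.9), Nfkb2 at 31.9 CPM (others 13.1 to 16.3), Rela at 56.9 CPM (others 27.4 to 32.5) and Relb at 15.9 CPM (others 5.29 to 6.74). It held Havcr1 at 1214 CPM (others 20.6 to 74.4), Gtse1 at 4.61 CPM (others 0.446 to 0.977), Cdkn1a at 237 CPM (others 11.7 to 31.1) and Gdf15 at 85 CPM (others 8.35 to 11.6). The same library had Lcn2 at 676 CPM (others 1.06 to 19.4), Fgg at 568 CPM (others 0.957 to 16.2), Fga at 1619 CPM (others 10.2 to 64.4) and Lrg1 at 254 CPM (others 3.2 to 9.5). It held Mt1 at 877 CPM (others 84.5 to 162), Mt2 at 705 CPM (others 42.4 to 98.8), Asns at 17.9 CPM (others 3.42 to 4.61) and Pdk4 at 244 CPM (others 5.6 to 14.3). The same library had Plin4 at 15.6 CPM (others 1.36 to 3.37).

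WT MAT2Ai replicate 2 stood below the rest of its group for 2 genes. It held Ecsit at 52.5 CPM (others 77.7 to 86.8) and Hadh at 308 CPM (others 436 to 467).

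WT MAT2Ai replicate 5 stood above the rest of its group for 8 genes. It held Gbp2 at 42.2 CPM (others 1.95 to 7.07), Irf1 at 45.7 CPM (others 6.98 to 13.8), Iigp1 at 205 CPM (others 1.94 to 4.08) and Nlrc5 at 9.5 CPM (others 0.852 to 3.31). The same library had H2-K1 at 766 CPM (others 106 to 209.8), Psmb8 at 129 CPM (others 6.01 to 10.8), Cd74 at 1720 CPM (others 115 to 177) and H2-Ab1 at 582 CPM (others 29.1 to 43.9).

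SP placebo replicate 5 stood above the rest of its group for 7 genes. It held Fst at 7.64 CPM (others 0.0136 to 0.729), Angpt2 at 4.62 CPM (others 1.63 to 2.24), Krt19 at 3.84 CPM (others 0.843 to 1.11) and Cryab at 26.1 CPM (others 9.29 to 11.5). The same library had Nupr1 at 6.33 CPM (others 3.37 to 3.99), Upk3a at 2.84 CPM (others 0.0469 to 0.35) and Slc14a2 at 2.29 CPM (others 0.0609 to 0.672).

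WT MAT2Ai replicate 3 stood above the rest of its group for 6 genes. It held Vcan at 14.9 CPM (others 0.184 to 0.854), Adgrf3 at 40.1 CPM (others 0 to 2.52), Upk1a at 6.3 CPM (others 0.0709 to 0.906) and Upk3a at 8.66 CPM (others 0 to 0.763). The same library had Krt5 at 4.46 CPM (others 0 to 0.568) and Psca at 17.4 CPM (others 0.0142 to 1.44).

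WT MAT2Ai replicate 1 stood above the rest of its group for 3 genes. It held Ccng1 at 452 CPM (others 228 to 279), Exoc4 at 44 CPM (others 31.8 to 35.2) and Dscaml1 at 0.567 CPM (others 0.0621 to 0.174).

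SP MAT2Ai replicate 1 stood above the rest of its group for 2 genes. It held Pqlc3 at 4.84 CPM (others 3.27 to 3.68) and Iigp1 at 9.67 CPM (others 1.98 to 3.94).

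SP MAT2Ai replicate 3 stood above the rest of its group for 2 genes. It held Krt19 at 2.03 CPM (others 0.993 to 1.24) and Mt1 at 123 CPM (others 61.7 to 77.4).

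SP MAT2Ai replicate 4 stood above the rest of its group for 2 genes. It held Ccl2 at 1.57 CPM (others 0.35 to 0.511) and Malat1 at 1393 CPM (others 606 to 811).

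WT placebo replicate 4 stood above the rest of its group for 1 gene. It held Fst at 1.56 CPM (others 0.0744 to 0.228).

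WT placebo replicate 4 stood below the rest of its group for 1 gene. It held Lrg1 at 2.56 CPM (others 3.93 to 4.32).

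SP MAT2Ai replicate 2 stood above the rest of its group for 1 gene. It held Havcr1 at 65.9 CPM (others 18.3 to 28.7).

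SP MAT2Ai replicate 5 stood above the rest of its group for 1 gene. It held Fosb at 2.11 CPM (others 0.129 to 0.5).

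SP placebo replicate 1 stood below the rest of its group for 1 gene. It held Ccng1 at 167 CPM (others 196 to 206).

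SP placebo replicate 2 stood above the rest of its group for 1 gene. It held Adgrf3 at 12.3 CPM (others 0 to 0.359).

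WT MAT2Ai replicate 4 stood above the rest of its group for 1 gene. It held Mtor at 303 CPM (others 212 to 237).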

How the results depend on the processing

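The count of 0 genes with genotype dependence kept its value under another scaling, without mitochondrial genes, with no filter or a mean of at least 1 CPM, with a robust spread, in limma-voom, and when the libraries labelled SP placebo 1 and 2 were dropped. DESeq2 gave 1 and the likelihood ratio test 1, and leaving out each library gave 0 to 0. With 19 libraries it was 7 in DESeq2, 5 in the likelihood ratio test and 1 with the replicate block. The 3 calls of the SP response became 27 in DESeq2, 17 in limma-voom and 20 in the likelihood ratio test, and 0 at a mean of at least 1 CPM, without the libraries labelled SP placebo 1 and 2, and without these and WT MAT2Ai replicate 2. Leaving out each library gave 0 to 13. The 0 calls of the WT response became 215 in DESeq2, 2 in limma-voom and 178 in the likelihood ratio test, and 0 to 27 leaving out each library. The cause of these shifts was not tested.

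Over all genes, replicate numbers did not pair the libraries: 4 of 30 same-numbered pairs correlated above 0.1 (mean r = -0.0158), and 6 of 20 libraries correlated best with their own number. Single genes could differ from this. Phlda3 and Eda2r were highest in replicates 1 and 2 of both inhibitor groups, and Ccng1 in replicate 1 of both. Whether the numbers pair libraries for such genes was not tested. With the replicate block the counts were 0 for the interaction, with 781 at an unadjusted p under 0.05, 4 for the SP response and 0 for the WT response.

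Of 100 of the genes named, 87 kept the direction of their interaction under all 31 alternatives, and 13 turned in at least 1. Without the libraries labelled SP placebo 1 and 2, Slc5a2 was at 0.44 and Nfkb2 at 0.042. Without these and WT MAT2Ai replicate 2, Slc5a2 was at 0.32, Icam1 at 0.25, Nfkb1 at 0.060, Nfkb2 at 0.36, Rela at 0.054, Relb at 0.30, Cdkn1a at 0.12, Gdf15 at 0.54 and Pdk4 at 0.27. In limma-voom, Nfkb2 was at 0.25, Rela at 0.073, Relb at 0.044, Gdf15 at 0.42, Tnfrsf10b at -0.077 and Pdk4 at 0.26. Nfkb2 was at 0.0064 with another scaling, 0.0034 without mitochondrial genes, 0.0065 in DESeq2 and 0.023 with the replicate block. Leaving out each library gave -0.56 to 0.25 for Icam1, -0.14 to 0.033 for Nfkb1, -0.095 to 0.31 for Nfkb2, -0.21 to 0.11 for Rela, -0.31 to 0.26 for Relb, -0.021 to 0.11 for Mtor, and -1.93 to 0.0044 for Cdkn1a, -0.91 to 0.72 for Gdf15, -0.033 to 0.19 for Tnfrsf10b, -0.24 to 0.040 for Sulf2, -3.54 to 0.79 for Iigp1 and -2.50 to 0.33 for Pdk4.

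With 5 libraries a group, the median standard error of 0.183 limits what the contrast can show, and lowly expressed genes have wider intervals.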
